A study of Homo sapiens with 6 samples.

Results

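The genes for 10 proteins that unwind or bind G-quadruplexes were examined for peaks of the chromatin remodeller SMARCA4. They were DHX36, DHX9, DDX5, BLM, WRN, PIF1, BRIP1, RTEL1, NCL and NPM1, named for the known activity of their proteins, out of 19794 protein-coding genes of the annotation. A gene window was the span of the GENCODE gene record on hg19 plus 5 kb on each side, and every peak with at least 1 bp in it was taken. Such peaks numbered 14, of 28265 in the whole list. SMARCA4 ChIP-seq had been carried out in K562, an established line from a chronic myelogenous leukaemia, with 3 ChIP libraries and 3 input libraries. Both groups were fixed with 2 mM disuccinimidyl glutarate for 30 min and 1% formaldehyde for 10 min. ChIP-seq sequences the DNA that an antibody recovers with a crosslinked protein, and input is the same chromatin without that step. The labels call the replicates technical with a single input, although 3 input libraries are listed, whereas the results of the paper call the replicates biological. The deposited regions pool the 3 replicates and carry no height, so no value has a spread between replicates.

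A G-quadruplex (G4) is a structure in which runs of guanines in DNA or RNA fold into stacked planes of guanines. Helicases are motor proteins that use ATP to separate nucleic acid strands, and several of them open G4s that would otherwise stall replication, repair or translation. Other proteins bind G4s without unwinding them. SMARCA4 is an ATPase of the SWI/SNF complex, which moves nucleosomes at promoters and enhancers. The genes below are ordered by what their proteins do, first helicases of the DEAD and DEAH box families, then DNA repair helicases, then nucleolar G4-binding proteins.

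Of the 10 genes, 9 had a SMARCA4 peak in the window (90.0%, 95% Wilson interval 59.6 to 98.2%), compared with 59.4% of all protein-coding genes. The windows were longer than usual, with a median of 53540 bp against 36980 bp over all coding genes. The median number of peaks per window was 1.0 in both, and the part of window length in this share was not tested. The same 9 had a promoter peak, defined as a peak with at least 1 bp within 1 kb of the start of a protein-coding transcript, against 46.8% of all protein-coding genes. NCL, the gene for nucleolin, was the gene with none. The intervals cover counting error only, and genes are not independent replicates. The 10 genes were chosen with earlier results of these data known. A CpG-rich start, here at least 50% GC and a CpG ratio (observed over expected CpG) of at least 0.6 within 500 bp of the canonical start, was found for 9 of the 10 and for 65.4% of the 19516 coding genes with an annotated canonical start, over which shares that refer to the canonical start are given. PIF1 fell short of it with a CpG ratio of 0.54. The GC content around the starts ranged from 51.9% at DHX36 to 69.3% at NCL. Among coding genes with such a start, 63.4% had a promoter peak, and 8 of 9 of the genes here did (88.9%, interval 56.5 to 98.0%).

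**Figure D1:**
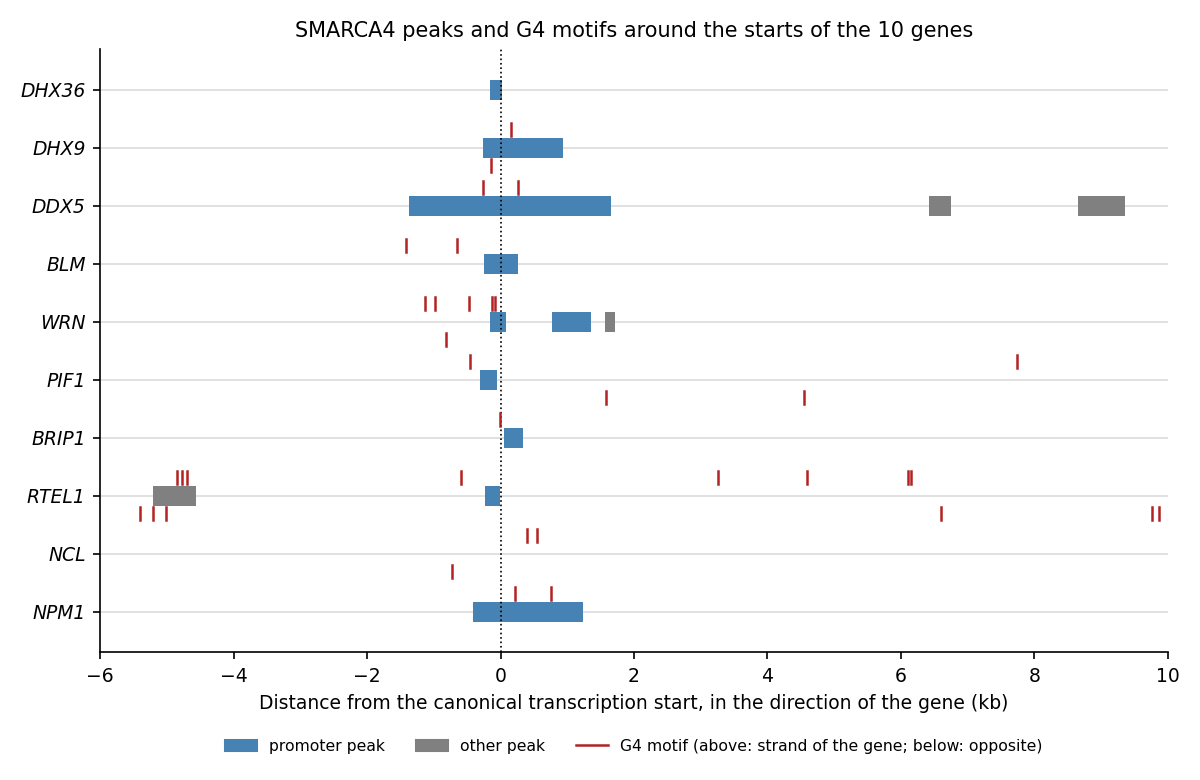
SMARCA4 peaks (bars) and G4 motifs (ticks, above the line on the strand of the gene and below it on the opposite strand) by distance in kb from the canonical transcription start of each gene. Blue bars are promoter peaks, grey bars are the other peaks of the window, and NCL has motifs but no peak.

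A G4 motif was defined by its letters as 4 runs of 3 or more guanines with 1 to 7 bases between neighbouring runs, and both strands were searched. Such a match describes the letters only and does not show that a G4 forms. In 4 of the 10 genes, DHX9, DDX5, WRN and NPM1, a motif lay wholly inside a promoter peak (40.0%, interval 16.8 to 68.7%). This share was 24.5% among all protein-coding genes. Among genes that had a promoter peak it was 4 of 9 here (44.4%, interval 18.9 to 73.3%) and 52.3% of all coding genes, a value inside that wide interval. Motifs near the start were common, and not all of them lay in a peak. Within 500 bp of the canonical start 7 of the 10 genes had at least 1 motif (70.0%, interval 39.7 to 89.2%), compared with 61.0% of coding genes with a canonical start. At BRIP1, PIF1 and NCL none of them was in a peak, and at WRN 2 were and 1 was not.

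**Figure D2:**
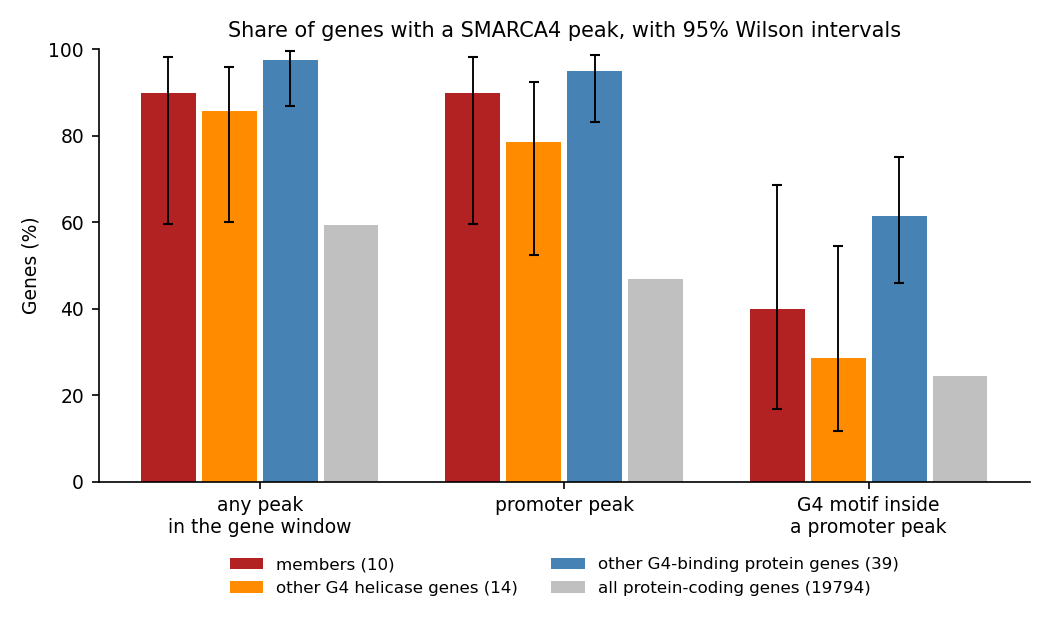
Percent of genes with any SMARCA4 peak in the gene window, with a promoter peak and with a G4 motif inside a promoter peak, for the 10 genes, the 14 and 39 genes of the other lists and all 19794 protein-coding genes. The 39 include HMGB2. Error bars are 95% Wilson intervals, and the bars of the 3 lists lie above the grey bar of all coding genes throughout, with intervals that reach it for the motif in the 10 genes and the other helicases. For any peak the interval of the 10 genes starts at 59.6%, just above the grey bar, and with a flank of 10 kb it includes the 62.9% of all coding genes.

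The promoter peaks differed widely in size. There were 10 of them in the 9 genes, since WRN had 2, and their median width was 401 bp, near the 420 bp of the 11790 distinct promoter peaks of coding genes. The widths ran from 182 bp at DHX36 to 3028 bp at DDX5. These are widths of regions found in at least 2 of 3 replicates. They need not match a peak called in any 1 replicate. Among all coding promoter peaks the 1st percentile of width was 23 bp. At 3 genes, DHX9, DDX5 and NPM1, the peak was over 1000 bp wide (33.3% of the 9 with a promoter peak, interval 12.1 to 64.6%), and the other 7 promoter peaks were at most 578 bp wide. Among all coding genes with a promoter peak, 15.3% had one of at least 1000 bp. DHX9 and DDX5 are RNA helicases and NPM1 is a nucleolar protein, but the narrowest peak also belonged to a helicase of the DEAD and DEAH box group, DHX36. The 6 promoter peaks of the 5 DNA repair helicase genes ran from 221 to 578 bp with a median of 278 bp.

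**Figure D3:**
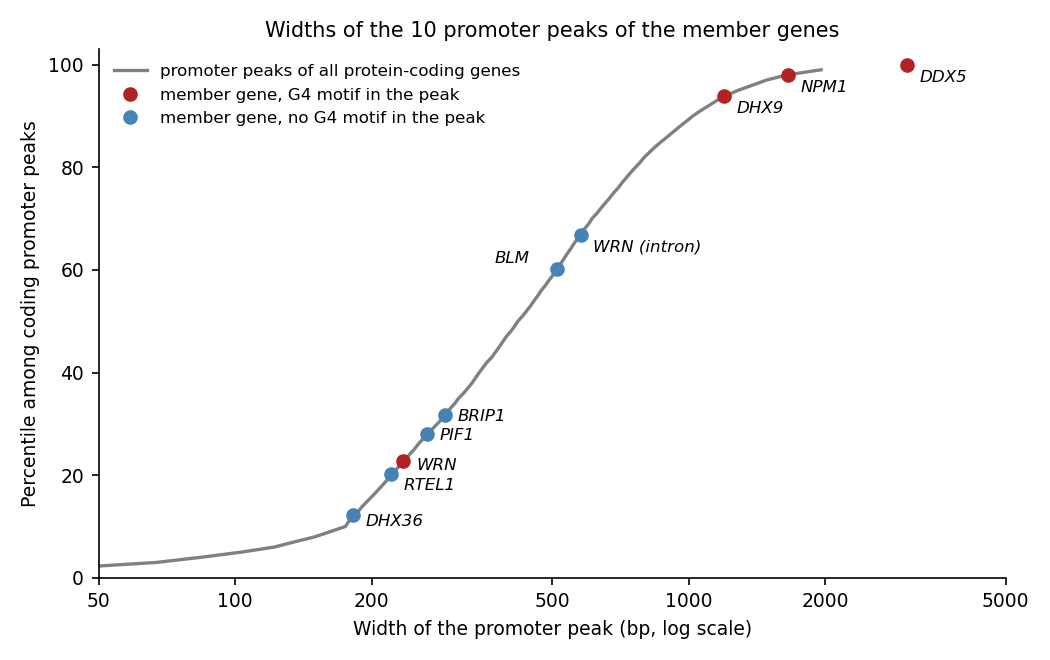
Width of each promoter peak of the 10 genes (points, bp on a log scale) against its percentile among the promoter peaks of all protein-coding genes (grey line, drawn from the 1st to the 99th percentile). Red points hold a G4 motif and blue points do not, and the 3 peaks over 1000 bp wide are all red.

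Width and motif content went together, here and among all coding promoter peaks. Of the 3 peaks of at least 1000 bp all held a motif, and of the 7 narrower than 600 bp only the peak at the WRN start did. Among all coding promoter peaks a motif was inside 77.7% of the 1259 that were at least 1000 bp wide (interval 75.3 to 79.9%). It was inside 30.4% of the 8109 that were narrower than 600 bp, and inside 19.8% of those under 300 bp. A longer peak holds more letters, and the part of width in the presence of a motif was not tested.

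DHX36 encodes a DEAH-box helicase that binds and opens G4s in DNA and RNA. Its gene (chr3:153990335-154042276 of hg19, minus strand) carried 1 peak, chr3:154042248-154042429, which was 182 bp wide and ran from -153 to 28 bp relative to the start, over exon 1 and the sequence before it. It was the narrowest of the promoter peaks here, at the 12.2 percentile of coding promoter peaks, with a GC content of 61.5%. No G4 motif was present in the 61942 bp of the DHX36 window, the only window of the 10 without one. The genome as a whole had 1.33 motifs per 10 kb. The peak held a cyclic AMP response element (CRE), the letters TGACGTCA, from -84 to -77 bp. It is shown with 8 bases on each side, with the element in capitals, on the minus strand at chr3:154042345-154042368, because it is the only CRE found at the centre of a peak of these genes.
DHX36 CRE: tcctcccgTGACGTCAccagaaac

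DHX9, also known as RNA helicase A, unwinds RNA, RNA-DNA hybrids and G4s. The DHX9 gene (chr1:182808482-182857117, plus strand) had 1 peak of 1199 bp at chr1:182808216-182809414, from -266 to 932 bp relative to the start, across exon 1 and into intron 1. It was wider than most promoter peaks, at the 93.8 percentile. The peak also covered the start of the noncoding DHX9-AS1, 214 bp from the DHX9 start on the opposite strand, a gene named here after its position was seen. Of the 4 motifs of the window, 2 lay in the peak, and their nearest bases were each 139 bp from the start, on either side of it. The first was upstream on the minus strand (chr1:182808320-182808343) and the second in intron 1 on the plus strand (chr1:182808621-182808643), so both strands carried guanine runs within the same peak. Capitals mark the runs of guanines in these and all later G4 motifs, which are written on the strand that carries the guanines.
DHX9 upstream: GGGagatGGGctgagccGGGcGGG
DHX9 intron 1: GGGGcggcGGGGtcgcGGGcGGG

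DDX5, a DEAD-box RNA helicase and transcriptional coactivator also called p68, unfolds G4 DNA in biochemical assays. Its gene (chr17:62494372-62504317, minus strand) had the widest promoter peak, 3028 bp at chr17:62500754-62503781, from -1374 to 1653 bp relative to the canonical start. Few coding promoter peaks are wider, with that of DDX5 at the 99.9 percentile. The peak contained 11 of the 14 coding starts annotated for DDX5, exons 1 and 2 and 210 coding bases of the canonical transcript. It also took in the start of CEP95, a centrosomal protein gene on the opposite strand whose nearest start was 576 bp away, so the peak cannot be assigned to one of the 2 genes. Both motifs of the 19946-bp window were in this peak, and both were on the strand of the gene. Like those of DHX9 they flanked the start, with nearest bases 259 bp before it (chr17:62502666-62502685) and 258 bp after it (chr17:62502133-62502149).
DDX5 upstream: GGGcttGGGaaaGGGcGGGG
DDX5 intron 1: GGGaGGGcGGGtcaGGG

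Further peaks lay near the end of DDX5. A peak of 333 bp (chr17:62495652-62495984) was inside exon 13, the last exon, in its untranslated part, and had a GC content of 29.7%, the lowest of the 14. A peak of 711 bp (chr17:62493043-62493753) lay downstream of the gene and covered the start of POLG2, the accessory subunit of the mitochondrial DNA polymerase. With 3 peaks in 19946 bp, DDX5 had the densest window of the 10, which together held 1.89 peaks per 100 kb, against 0.989 over the genome.

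BLM and WRN are RecQ helicases that act in recombination and replication, and their loss causes Bloom and Werner syndrome. The BLM gene (chr15:91260577-91359396, plus strand) had 1 peak of 512 bp at chr15:91260329-91260840, from -248 to 263 bp relative to the start, the 60.1 percentile. It covered exon 1, part of intron 1 and the start of the noncoding CRTC3-AS1, which was 205 bp away on the opposite strand and was named after its position was seen. None of the 6 motifs of the BLM window was in the peak. The nearest, at chr15:91259922-91259936 on the plus strand, ended 641 bp before the start and 393 bp from the peak. It is shown because all of its loops are a single base, which made it, with 15 bases, as short as a motif of this definition can be.
BLM upstream: GGGaGGGcGGGaGGG

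WRN had more peaks at its start than any other DNA repair helicase gene here. The gene (chr8:30891304-31033654, plus strand) carried a peak of 235 bp from -156 to 78 bp, which held 2 motifs and had a GC content of 71.5%. The peak also covered a start of PURG, a gene for a purine-rich element binding protein on the opposite strand, whose nearest start was 95 bp from the WRN start. Like that of DDX5, this peak cannot be assigned to 1 of the 2 genes. Both motifs were upstream on the plus strand, with nearest bases 118 and 66 bp before the start, and another motif within 500 bp lay outside the peak, 456 bp before the start. In intron 1 followed a peak of 578 bp, from 772 to 1349 bp, which counted as a promoter peak by its first bases. A peak of 137 bp from 1572 to 1708 bp did not. These intronic peaks had a different composition from the peak at the start. Their GC contents were 41.9 and 52.6%, and their CpG ratios were 0.16 and 0.23 compared with 1.04 at the start.

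PIF1, BRIP1 and RTEL1 had narrow promoter peaks beside the canonical start rather than across it. Over the 10 promoter peaks, 6 covered the canonical start, those of DHX36, DHX9, DDX5, BLM, WRN and NPM1. Among the 19516 coding genes with a canonical start a peak covered it in 34.9%, and among the 10 genes here in 6 (60.0%, interval 31.3 to 83.2%).

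PIF1 is a helicase that removes G4s from replicating DNA and acts at telomeres. Its gene (chr15:65107831-65117867, minus strand) had 1 peak of 265 bp at chr15:65117895-65118159, wholly upstream from -313 to -49 bp. The peak had no motif, and a motif on the strand of the gene (chr15:65118301-65118321) stood 142 bp beyond its upstream edge, 455 bp before the start. BRIP1, the Fanconi anaemia helicase FANCJ that partners BRCA1, showed the opposite arrangement. The peak of the BRIP1 gene (chr17:59756500-59940920, minus strand) measured 290 bp (chr17:59940552-59940841) and lay downstream, from 48 to 337 bp, over exon 1 and intron 1. It covered 3 of the 11 coding starts annotated for BRIP1. A motif spanned the canonical start itself, from -18 to 6 bp (chr17:59940883-59940907, minus strand), and missed the peak by 42 bp. The BRIP1 and PIF1 motifs are shown as the motifs closest to a promoter peak without lying in it.
BRIP1 start: GGGagtcgaGGGGGcGGGaggcGGG
PIF1 upstream: GGGGGcGGGGGaGGGattGGG

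RTEL1, the regulator of telomere elongation helicase, dismantles telomeric loops and G4s. Its gene (chr20:62289163-62327606, plus strand) had a promoter peak of 221 bp at chr20:62289436-62289656, from -229 to -9 bp, with no motif. The RTEL1 window was nevertheless the richest in motifs. It held 42 in 48444 bp, or 8.67 per 10 kb, and the other 9 windows had between 0 and 2.99 per 10 kb. Motifs on the strand of the gene made up 28 of the 42. Of these 42 motifs, 4 were inside a peak, and all 4 were in a second peak of 651 bp (chr20:62284454-62285104) that covered the canonical start of STMN3, a stathmin family gene, -5211 to -4561 bp from the RTEL1 start. Another start annotated for STMN3, on the opposite strand 630 bp from the RTEL1 start, was in neither peak. Of the remaining 38, 1 crossed the edge of the STMN3 peak and was counted as outside, and the others lay clear of the peaks. A motif in the STMN3 peak, chr20:62284950-62284972 on the plus strand, is shown as an example.
STMN3 start: GGGGGcGGGGGaaggaGGGaGGG

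NPM1, nucleophosmin, is an abundant nucleolar chaperone that binds G4s of ribosomal DNA. The NPM1 gene (chr5:170814120-170838814, plus strand) had 1 peak of 1652 bp at chr5:170814438-170816089, from -415 to 1236 bp, the 98.0 percentile of coding promoter peaks. It covered 11 of the 12 coding starts annotated for NPM1, exon 1 and part of intron 1. The peak held 2 motifs, both in intron 1 on the strand of the gene, at chr5:170815063-170815082 and chr5:170815598-170815619. The other 8 motifs of the window were all in intron 8, on the opposite strand, and no peak lay there. They occupied 615 bp (chr5:170830645-170831259) and 6 of them had identical letters, as in a tandem repeat. In the repeated motif the last run of guanines serves as a pair of runs with a guanine as the loop between them.
NPM1 intron 1, first: GGGtGGGGGtgaGGGGcGGG
NPM1 intron 1, second: GGGGGaGGGaGGGGGGtgtGGG
NPM1 intron 8, repeated: GGGaGGGaggtGGGGGGG

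NCL encodes nucleolin, a major nucleolar protein that binds G4s of the MYC promoter and of ribosomal DNA. Its window (gene at chr2:232318242-232348352, minus strand) had no peak in 40111 bp. The nearest peak to the canonical start, chr2:232378869-232379231, was 49674 bp away. The NCL start was nonetheless the most GC-rich of the 10, with 69.3% GC within 500 bp and a CpG ratio of 1.03, against a median GC of 61.4% over all coding genes. The NCL window held 7 motifs, 3 of them within 1 kb of the canonical start. The nearest bases of the 2 in intron 1 were 389 bp (chr2:232328782-232328806) and 533 bp (chr2:232328640-232328662) after the start, on the strand of the gene. Uniqueness of the sequence was measured directly. Of 78 reads of 75 bases taken every 25 bases from within 1 kb of the NCL start, 78 mapped to that place alone with mapping quality 10 or higher. The same share was 97.4 to 100% for the 9 genes with a peak. Whether a weaker enrichment was present at NCL cannot be seen in a list without heights. The intronic motifs are shown because they are of the same kind as those inside the NPM1, DDX5 and DHX9 peaks.
NCL intron 1, first: GGGGaGGGGGcgctGGGcctcGGGG
NCL intron 1, second: GGGaccGGGtgccttGGGccGGG

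Taken over the 10 windows, which together span 739403 bp, 12 of 94 motifs lay inside a peak (12.8%, interval 7.46 to 21.0%) and 82 did not. Over the genome 3.02% of motifs did, while peaks covered 1.35% of the windows and 0.457% of the genome outside gaps. Every window holds a gene start, unlike the genome as a whole, and the share in the windows of all coding genes was not computed. Of the 12, 4 were in the peak at the STMN3 start and 8 in promoter peaks of the genes described here. The count depended on its definition, with 5 motifs inside peaks when the window was the gene span alone and 21 when loops of up to 12 bases were allowed. RTEL1 alone supplied 42 of the 94. The 10 windows together had 1.27 motifs per 10 kb, and the 9 without RTEL1 had 52 motifs, or 0.753 per 10 kb, below the genome's 1.33. Of these 52, 8 were inside a peak (15.4%, interval 8.01 to 27.5%). Of the 94, 53 were on the strand of the gene, and of the 8 inside promoter peaks 7 were, the exception being the upstream motif of DHX9.

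**Figure D4:**
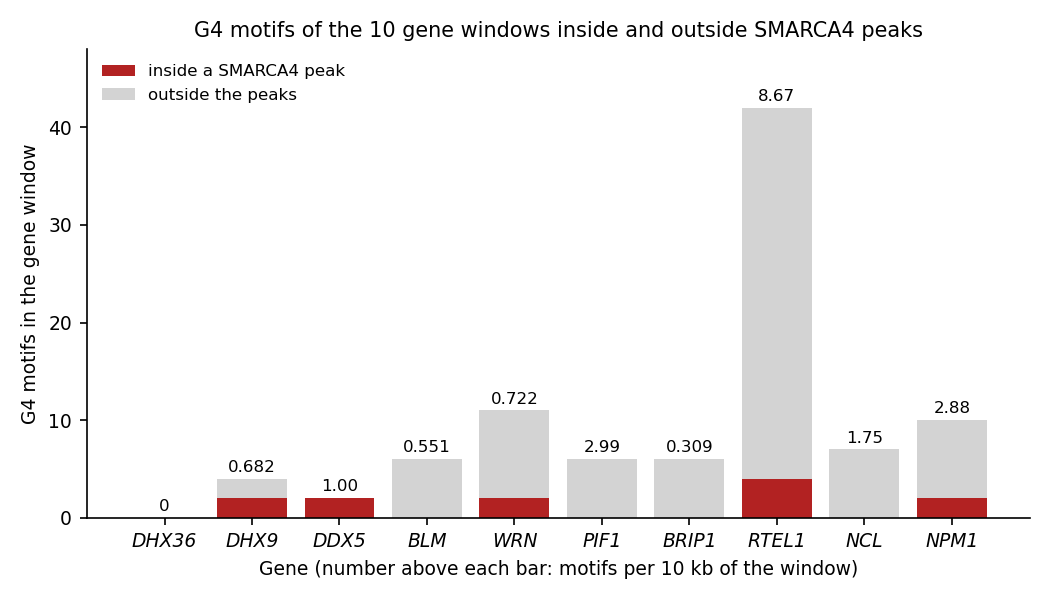
Number of G4 motifs in each gene window, wholly inside SMARCA4 peaks (red) and not wholly inside them (grey), with the motifs per 10 kb of window above each bar. RTEL1 has 42 motifs, DHX36 has 0, and DDX5 is the gene whose motifs are all inside a peak.

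Short motifs of common promoter factors were sought on either strand of the 200 bp at the middle of each peak. A match is a description and not a site of binding, and a missing match says only that the letters are not in that window. GGGCGG, the letters bound by SP and KLF factors, was there in 6 of the 10 promoter peaks, those of DHX36, BLM, WRN, RTEL1, DHX9 and DDX5, and in 54.9% of the 11790 coding promoter peaks. This motif can overlap a G4 motif, and 1 of the 3 matches at the WRN start did. CCAAT was in 4 of the 10, against 18.2%, namely at BLM, PIF1 and NPM1 and in the intronic peak of WRN. At BLM a pair of CCAAT boxes, 1 on each strand, stood before the start, from -46 to -42 bp (minus strand, shown over chr15:91260523-91260543) and from -21 to -17 bp (plus strand, shown over chr15:91260548-91260568). The box is in capitals.
BLM CCAAT, minus strand: gaagccgaCCAATactgtcgc
BLM CCAAT, plus strand: ggaagcagCCAATcggaatag

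GATA letters (GATA after A or T and before A or G) were in the central 200 bp of 2 of the 10 promoter peaks, at DHX36 and in the intronic WRN peak, and in 14.2% of coding promoter peaks. The DHX36 match, from -156 to -151 bp, ran past the edge of the 182-bp peak, which is shorter than the window searched. GATA factors are lineage regulators of the erythroid cells that K562 resembles, and over all 28265 peaks the share was 40.2%. The CRE of DHX36 was the 1 match among the 10, against 1.70%. The central 200 bp of the 10 promoter peaks held none of the AP-1 letters TGACTCA or TGAGTCA (3.80% of coding promoter peaks), the ETS letters CCGGAAGT (4.06%), the E-box CACGTG (6.54%) or the NRF1 motif (1.22%), and the rest of the wider peaks was not searched. The centre of the peak at the POLG2 start held an AP-1 match. BRIP1 was the gene whose peak centre held none of the 8 motifs.

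Further genes were taken from 2 lists, one of other helicases and one of proteins known or proposed to bind G4s, such as telomere proteins, transcription factors and hnRNP proteins. Of 14 other helicase genes 11 had a promoter peak (78.6%, interval 52.4 to 92.4%), and of 39 genes of the second list 37 did (94.9%, interval 83.1 to 98.6%), beside 46.8% of all coding genes. Among coding genes with a CpG-rich start, which all 14 helicase genes and 38 of the 39 others had, the share was 63.4%. The helicase interval includes that value, and for the others 36 of 38 had a promoter peak (94.7%, interval 82.7 to 98.5%). The second list includes HMGB2, a general DNA-binding protein. In the paper it was a candidate from labelling in cells. Pull-down with oligonucleotides there showed binding to single-stranded and double-stranded DNA but not to G4s. HMGB2 was therefore not counted as a G4 binder here, and is named for that reason. Counts for the second list include it, and counts for G4-binding proteins leave it out, a choice made after seeing the data. Then 36 of 38 genes had a promoter peak (94.7%, interval 82.7 to 98.5%), and of the 37 with a CpG-rich start 35 did (94.6%, interval 82.3 to 98.5%). A G4 motif lay inside a promoter peak in 23 of the 38 (60.5%, interval 44.7 to 74.4%), or 23 of the 36 with a promoter peak (63.9%, interval 47.6 to 77.5%). The genes without a promoter peak were RECQL, RECQL5 and DDX24 among the helicases and ATRX and SLIRP in the second list. Like NCL they had CpG-rich starts, and from each of the 5, 78 of 78 test reads mapped uniquely. The nearest peak was 33062 bp from the start for RECQL5, a RecQ helicase, and 63228 bp for its relative RECQL. It was 112976 bp away for ATRX, a chromatin remodeller, 52681 bp for SLIRP, a mitochondrial RNA-binding protein, and 747915 bp for DDX24, a DEAD-box helicase. The windows of SLIRP and RECQL5 did hold peaks, 4 and 1, and those of RECQL, DDX24 and ATRX held 0.

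A G4 motif inside a promoter peak was found in 4 of the 14 other helicase genes (28.6%, interval 11.7 to 54.6%) and in 24 of the 39 genes of the second list (61.5%, interval 45.9 to 75.1%), beside 4 of the 10 genes described above and 24.5% of all coding genes. Counted only over genes with a promoter peak, the shares were 4 of 11 (36.4%, interval 15.2 to 64.6%) and 24 of 37 (64.9%, interval 48.8 to 78.2%), and both intervals include the 52.3% of coding genes. The median of the widest promoter peak per gene was 512 bp in the 9 genes, 492 bp in the other helicases, 780 bp in the second list and 533 bp in all coding genes with one. The widest of the other lists, at HNRNPH1 (2056 bp), CIRBP (1890 bp) and HNRNPA2B1 (1779 bp), belong to RNA-binding proteins and were narrower than the peak of DDX5. The most motifs inside promoter peaks were at HNRNPF, an RNA-binding protein of the hnRNP H/F family that binds runs of guanines, with 10. MAZ and SP1, zinc finger factors that bind guanine-rich DNA, had 9 and 5, and HNRNPH1 equalled SP1 with 5. None of the 10 genes had more than 2 motifs inside promoter peaks.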

How the data were processed

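The authors used cutadapt 1.16 for trimming, BWA 0.7.15 for alignment to hg19, Picard 2.14.0 and SAMtools 1.6 to remove duplicates, MACS2 2.1.1 to call peaks in each replicate (q-value threshold 0.05) and bedtools 2.26.0 to keep regions found in at least 2 of 3 replicates. The deposited values are region starts and ends in bp, counted here from 1. Library depth was not analysed here.

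Genes and sequence came from GENCODE on the same build, read with Python 3.11.15, numpy 2.4.6, scipy 1.17.1 and pysam 0.24.0; figures used matplotlib 3.10.9. Motif matches did not overlap and took the shortest loops. Test reads were mapped with minimap2 2.31-r1302. Overlap and motif code was tested on simulated data.

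The 10 member genes and the lists were chosen with earlier results of these data known. Named were these 10, genes whose coding start lay in a peak of a member window, and, of both other lists together, every gene without a promoter peak, the 3 with the widest promoter peak and the 3 with the most motifs in promoter peaks, ties included. Alternatives changed the peak set, promoter, window flank and motif rule, and leaving out HMGB2 was added after seeing the data.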

Additional observations from a re-analysis of the deposited data

How the results depend on the processing

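No paired analysis was possible because all regions come from 1 pool of 3 replicates. Of 51 values recomputed for the gene lists under the alternatives, 49 stayed within 1.5 times the count (or, for the median width, within its binomial interval of 221 to 1652 bp). The exceptions were the motifs inside peaks of the 10 windows. With the gene span alone, without a flank, 5 motifs lay in a peak in place of 12, since the window is shorter, and with loops of up to 12 bases 21 did, since the motif is looser. Without peaks under 200 bp, DHX36 lost its only peak and 8 genes had a promoter peak. Without a flank 8 genes had any peak, since the PIF1 peak lies upstream of the gene span. A motif within 100 bp of the peak added BRIP1 to the 4 genes with one, and loops of up to 12 bases added RTEL1. NCL had no peak also with a flank of 10 kb. Over all coding genes the share with any peak ran from 52.4 to 62.9%. With a flank of 10 kb 9 of the 10 genes still had a peak. Their interval, from 59.6 to 98.2%, then included the 62.9% of all coding genes, whereas in the main setting it lay just above 59.4%. The share of coding genes with a promoter peak ran from 43.9 to 48.2%, and with a motif in one from 22.6 to 32.1%. HMGB2 was not counted as a G4 binder here. Leaving it out of the list of known or proposed G4 binders, a choice made after seeing the data, changed 37 of 39 to 36 of 38. With 10 genes and no heights, the Wilson intervals are wide.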
